A study of Mus musculus with 2 samples.

Results

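The genes described here encode heat shock proteins, their cofactors and other folding helpers. They were taken by name from the single-gene probes of an expression array: symbols starting with Hsp, Dnaj, Fkbp, Pdia or Bag, with Cct and a number, or with Ppi and a letter, together with Tcp1, Calr and Canx. This gave 61 genes of the 4331 named genes on the array, 56 of them with 1 probe and 5 with 2 probes. By their known location 45 act in the cytosol or nucleus, 11 in the endoplasmic reticulum (ER) and 4 in the mitochondrion. Fkbp8, whose protein is anchored in membranes of more than 1 organelle, was left outside these classes.

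The study compared gamma delta T cells carrying the surface glycoprotein CD5 from spleens of mice with the LAT3YF allele and of wildtype mice. LAT is the adaptor through which the T cell receptor reaches its signalling enzymes, and 3YF denotes tyrosine-to-phenylalanine replacements in it. Per the labels, beads against CD5 (MACS) and a FACSDiva instrument were used to sort them positively, and total RNA of the 2 genotypes was hybridised in the 2 channels of each array. The labels give no age, sex, strain or treatment of the mice and do not say whether animals were pooled. The question for the chaperone genes is how their transcript ratios differed between the genotypes.

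The 2 arrays are a pair with reversed dyes, called + polarity and - polarity in the labels. Nothing ties them to separate animals or RNA extracts, so they were counted as 1 replicate and no test between the genotypes was made. Each SD below is over the 2 arrays and is no measure of the spread between animals. Whether it covers more than technical error cannot be told from the labels. Where a gene has a pair of values, the + polarity array comes before the - polarity array. Values are the deposited log ratios read as log10, with the sign of the - polarity array turned, and folds rest on that base. Neither the labels nor the table says which sign belongs to LAT3YF, so the sides are named by landmark genes. On the positive side lay Gata3, a transcription factor of type 2 T cells (0.593 ± 0.0057), and the proliferation antigen gene Mki67 (0.467 ± 0.011). On the negative side lay the macrophage receptor gene Adgre1 (-1.05 ± 0.035). Lat itself was at 0.179 ± 0.010 and Cd5 at 0.614 ± 0.0077. The constant regions of the gamma delta receptor had no named probe in the list used, and a ratio cannot show whether a marker is present in either population.

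Chaperones bind unfolded proteins and help them to reach or keep their fold. In the cytosol, Hsp70 proteins work in cycles set by J-domain partners (Dnaj genes), which deliver clients and speed ATP hydrolysis, and by nucleotide exchange factors such as the Hsp110 and Bag proteins, which release them. Hsp90 and the CCT ring act on more specialised clients, many of them kinases and cytoskeletal proteins. The ER has its own Hsp70 (Hspa5, also called BiP) and Hsp90 (Hsp90b1), lectin chaperones for glycoproteins, and disulfide isomerases, while mitochondria use Hspa9 and the Hspd1-Hspe1 chamber. Activated and dividing lymphocytes are known to need more folding capacity.

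Ratios of the chaperone genes were small. RNA was taken from bulk sorted cells, so a different mix of cells and a different level per cell cannot be told apart in any of them. The median over the 61 genes was 0.0466 (1.11-fold toward the positive side), against 0.0023 over all 4331 named genes. Of the 61, 41 (67.2%) had a mean ratio within 0.1 of 0, as had 61.2% of all named genes. A gene was called when its mean was at least 2-fold in size and its sign was the same on both arrays, which is a rule of size and not a test. By this rule 8.75% of all named genes were called, in either direction. A total of 1 chaperone gene was called, Fkbp1b, on the positive side (1.64% of 61, against 3.72% of all named genes called positive), and none on the negative side (5.03% of all named genes). At 1.5-fold, 6 lay on the positive side (9.84%, against 8.43% of all named genes) and 2 on the negative side (3.28%, against 9.44%). These shares, based on few genes, lie near or below the background.

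Small ratios with the same sign on both arrays were frequent among the chaperone genes. Of the 61, 31 were above 0 on both arrays (50.8%, against 30.2% of all named genes), 18 were below 0 on both (29.5%, against 29.3%) and 12 had opposite signs (19.7%, against 40.4%). The mean was larger than the SD of the 2 arrays in 44 genes (72.1%, against 52.2%), and the median SD was 0.0390, against 0.0579 over all named genes. Across the 61 genes the arrays correlated with Pearson r = 0.383, and across all named genes with r = 0.403. Genes are not independent replicates and the 2 arrays may share their RNA, so these coefficients describe the arrays. How brightly each probe shone was not analysed here, so whether abundance goes with the smaller spread was not tested.

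**Figure D1:**
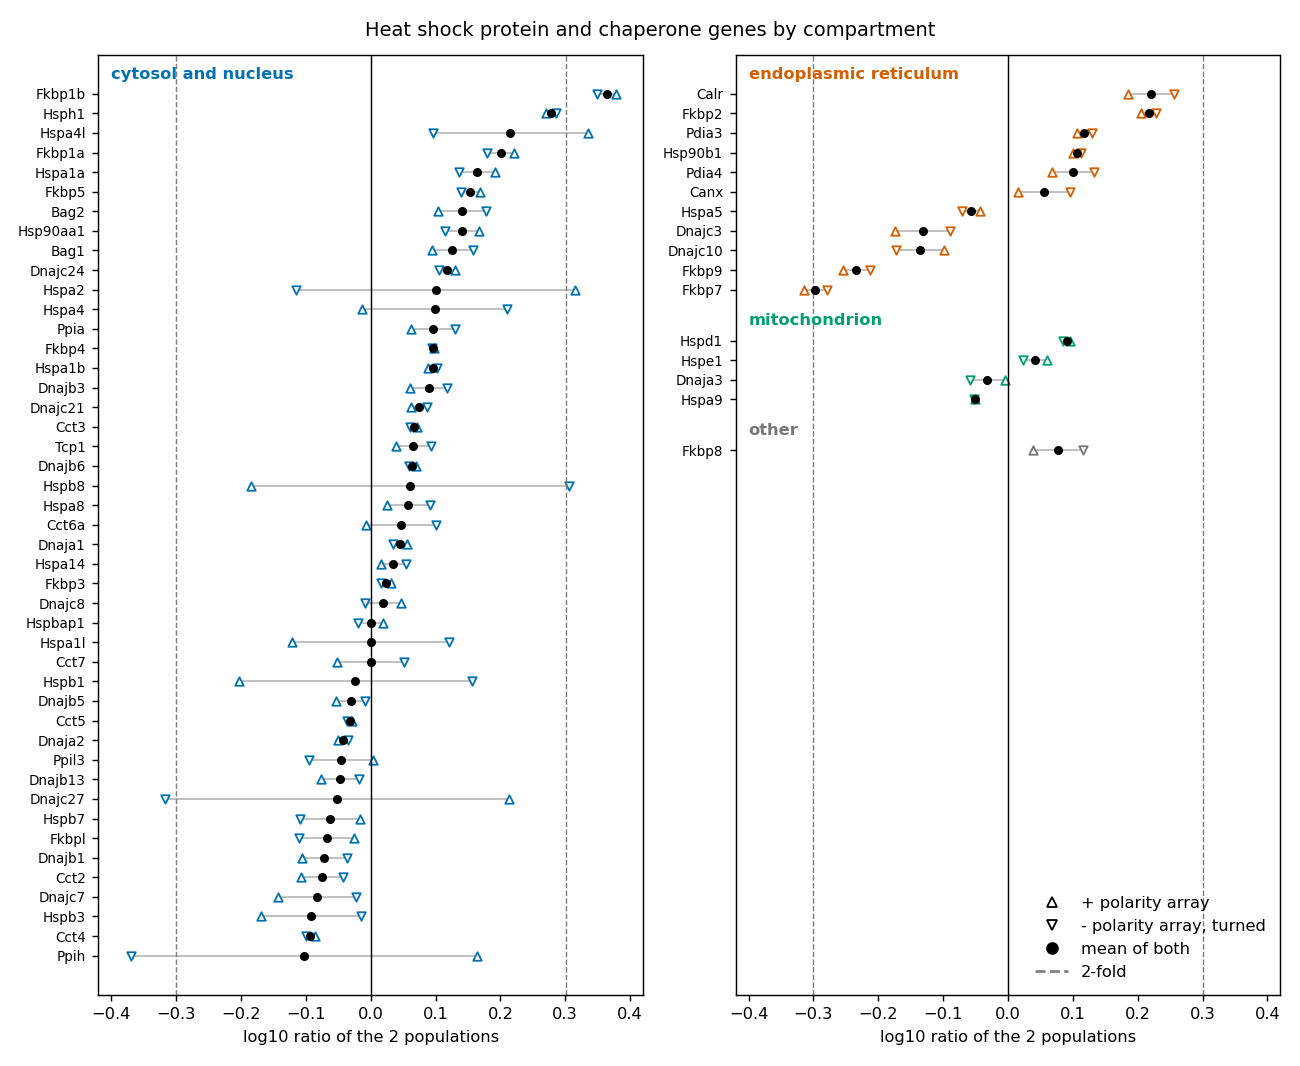
Log10 ratio of the 2 populations for each of the 61 chaperone genes, by compartment. Upward triangles are the + polarity array, downward triangles the - polarity array after its sign was turned, black dots their mean, and dashed lines mark 2-fold. Fkbp1b, at 0.364, is the gene whose mean lies past 2-fold, and the 11 ER genes split into 6 above and 5 below 0 with neither array crossing 0.

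The compartments were not separated. The median was 0.0466 for the 45 cytosolic and nuclear genes, 0.0556 for the 11 ER genes and 0.00464 for the 4 mitochondrial genes. The order of the medians changed with the array. On the + polarity array it ran from cytosol and nucleus (0.0388) through mitochondrion (0.0274) to ER (0.0156), and on the - polarity array from ER (0.0956) through cytosol and nucleus (0.0611) to mitochondrion (-0.0145). The ER median exceeded the cytosolic one by 0.00896 on average, was 0.0345 higher on the - polarity array, and differed by -0.0232 on the + polarity array. The difference thus changed sign between the arrays, and the spread within each compartment was far larger. Cytosolic and nuclear means ran from -0.103 to 0.364 and ER means from -0.298 to 0.220, while the 4 mitochondrial means stayed between -0.0514 and 0.0907.

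The ER genes lay on either side of 0, 6 above and 5 below. All 11 had the same sign on both arrays, and 10 had a mean larger than their SD, Canx being the exception. On the positive side lay the lectin chaperones, the disulfide isomerases, Hsp90b1 and Fkbp2. Calr, the lectin chaperone calreticulin, was at 0.185 (+ polarity) and 0.256 (- polarity), with a mean of 0.220 ± 0.050 (1.66-fold). Its membrane-bound relative calnexin (Canx) was at 0.0156 and 0.0956, a mean of 0.0556 ± 0.057, and its 2 probes gave 0.0331 and 0.0781. Pdia3, the disulfide isomerase that works with both lectins, was at 0.106 and 0.129 (mean 0.118 ± 0.016, 1.31-fold). Pdia4, another disulfide isomerase, was at 0.0671 and 0.133 (mean 0.10015 ± 0.047). The 4 lectin and isomerase genes thus lay above 0 on each array, and Calr stood highest on each. Hsp90b1, the ER Hsp90, was at 0.099995 and 0.113 (mean 0.107 ± 0.0092, 1.28-fold), with probe means of 0.102 and 0.111. Fkbp2, a prolyl isomerase of the ER lumen, was at 0.206 and 0.229 (mean 0.217 ± 0.016, 1.65-fold), and its 2 probes differed by 0.0043.

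Below 0 lay the ER Hsp70, 2 J-domain genes and 2 of the 3 ER prolyl isomerase genes of the Fkbp family. Hspa5 was at -0.0437 (+ polarity) and -0.0713 (- polarity), a mean of -0.0575 ± 0.020 (1.14-fold). Dnajc3, which feeds clients to Hspa5, was at -0.174 and -0.0897 (mean -0.132 ± 0.060, 1.35-fold). Dnajc10, a J-domain reductase of disulfide bonds, was at -0.0990 and -0.172 (mean -0.136 ± 0.052, 1.37-fold). The 3 ratios are below 1.5-fold, and each is larger than its SD. The lowest means of the 61 genes were those of Fkbp7 and Fkbp9, calcium-binding ER prolyl isomerases, although on the - polarity array alone Ppih (-0.370) and Dnajc27 (-0.318) were lower. Fkbp7 was at -0.315 and -0.280 (mean -0.298 ± 0.025, 1.98-fold), just short of the 2-fold line, and Fkbp9 at -0.255 and -0.213 (mean -0.234 ± 0.029, 1.71-fold). Neither gene's values overlapped those of Fkbp2, their relative in the same compartment.

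A promoter element was found for 5 of the 11 ER genes, on either side of 0. The ER stress response element is bound by transcription factors of the unfolded protein response, and was searched as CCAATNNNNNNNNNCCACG on either strand in RefSeq promoter windows (GRCm38.p6, 250 bases before to 50 after each annotated start). Windows were found for 57 of the 61 genes, Cct4, Hsp90aa1, Hspa8 and Hspa9 being those without. The element was present for 5 of the 57 (8.77%), namely Calr, Hsp90b1, Canx, Hspa5 and Dnajc3, against 37 of 27025 genes with a window (0.137%). Among measured genes with a window it was present for 7 of 3427 (0.204%). The element is one known from ER chaperone promoters, so these shares are no independent result. The stretches around the matches are shown because genes on either side of 0 hold them, 5′ to 3′ on the strand of the gene, with the match in capitals.
Calr: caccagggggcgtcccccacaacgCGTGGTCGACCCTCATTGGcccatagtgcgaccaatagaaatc
Hsp90b1: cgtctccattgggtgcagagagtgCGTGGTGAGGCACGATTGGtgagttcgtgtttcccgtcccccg
Canx: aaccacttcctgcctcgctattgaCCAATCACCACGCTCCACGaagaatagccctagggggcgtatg
Hspa5: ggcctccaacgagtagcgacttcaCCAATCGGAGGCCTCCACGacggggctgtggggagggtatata
Dnajc3: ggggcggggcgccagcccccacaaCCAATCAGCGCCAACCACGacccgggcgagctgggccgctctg

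The stretches lie at chr8:84847051-84847117 (Calr, minus strand), chr10:86705509-86705575 (Hsp90b1, minus strand), chr11:50325776-50325842 (Canx, minus strand), chr2:34772001-34772067 (Hspa5, plus strand) and chr14:118937803-118937869 (Dnajc3, plus strand), all upstream of the annotated start. In Calr and in the Hsp90b1 stretch shown, the element runs in the reverse orientation. Hsp90b1 holds another match, in the forward orientation, which begins 212 bases before the start. Calr, Hsp90b1 and Canx had positive mean ratios and Hspa5 and Dnajc3 negative ones, so genes with these letters did not share a side. A match of letters is a description of the window and says nothing of whether a factor binds it.

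Other genes of ER quality control, taken from a list of 36 that lie outside the name rule, also lay on either side of 0. Of 13 measured, 7 were above 0 on both arrays, 3 below 0 on both and 3 had opposite signs, with a median of 0.0667. Of all named genes, 30.2% were above 0 on both arrays and 29.3% below 0 on both. By the rule of size, 1 of the 13 was called positive and 1 negative. Of all named genes, 3.72% were called positive and 5.03% negative. The positive call was Asns, asparagine synthetase, at 0.357 ± 0.033 (2.27-fold), a target of the stress factor ATF4, while Atf4 itself was at -0.0655 ± 0.032. Ero1a, which reoxidises disulfide isomerases, was at 0.191 ± 0.024 (1.55-fold), and P4hb, the founding disulfide isomerase, at 0.0657 ± 0.017. The negative call was Sel1l, an adaptor of the complex that sends misfolded ER proteins to degradation, at -0.351 ± 0.049 (2.24-fold). Herpud1, a further component of that degradation pathway, was at -0.287 ± 0.095 (1.93-fold). Xbp1, the transcription factor activated by splicing under ER stress, was at 0.0667 ± 0.022, and this probe's ratio does not measure splicing.

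The cytosolic nucleotide exchange factors measured were 3 Hsp110 and 2 Bag genes, and 4 of these 5 genes, Hspa4 excepted, were above 0 on both arrays. Hsph1, the Hsp110 of the heat shock response, was at 0.270 (+ polarity) and 0.285 (- polarity), a mean of 0.278 ± 0.011 (1.89-fold), and ranked 184 of 4331 from the highest ratio. The related Hspa4l was at 0.334 and 0.0965, so its mean of 0.215 ± 0.17 (1.64-fold) was past 2-fold on the + polarity array and small on the other. Hspa4, the third Hsp110, had no settled sign. Its 2 probes gave 0.0426 ± 0.011 and 0.154 ± 0.33, and the latter ran from -0.0770 to 0.386. Bag1, an exchange factor that also binds BCL2, was at 0.0945 and 0.157 (mean 0.126 ± 0.044, 1.34-fold). Bag2, which also restrains the ubiquitin ligase of the Hsp70 system, was at 0.103 and 0.178 (mean 0.140 ± 0.053, 1.38-fold). The grouping of Hsph1, Hspa4 and Hspa4l apart from the other Hsp70 genes was made after the values were seen.

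The Hsp70 genes themselves had smaller ratios. Hspa1a, the main stress-inducible Hsp70, was at 0.192 and 0.137 (mean 0.164 ± 0.039, 1.46-fold), and its near-identical copy Hspa1b at 0.0885 and 0.102 (mean 0.0953 ± 0.0096). Probes for these copies can share signal, so the assignment between them is uncertain. Hspa8, the constitutive Hsp70, was at 0.0579 ± 0.047 and Hspa14, a ribosome-associated relative, at 0.0349 ± 0.027. The testis-enriched Hspa2 and Hspa1l changed sign between arrays, Hspa2 from 0.316 to -0.116 and Hspa1l from -0.122 to 0.121. Over the 8 genes of the family, the ER and mitochondrial ones included, the median was 0.0464.

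The J-domain genes lay on either side of 0. Of 15 measured in all compartments, 5 were above 0 on both arrays and 8 below 0 on both, with a median of -0.0321. The 12 cytosolic and nuclear ones among them had 6 means above and 6 below 0, with a median of -0.00584 (+ polarity 0.0513, - polarity -0.00872). The highest was Dnajc24, a factor in the diphthamide modification of a translation elongation factor, at 0.130 and 0.106 (mean 0.118 ± 0.018, 1.31-fold). Dnajb3 (0.0895 ± 0.041), the ribosome biogenesis factor Dnajc21 (0.0742 ± 0.017), Dnajb6 (0.0638 ± 0.0075), which keeps aggregation-prone proteins soluble, and the general Hsp70 partner Dnaja1 (0.0450 ± 0.015) were the other genes above 0 on both. Below 0 lay, besides Dnajc3 and Dnajc10, Dnajc7 at -0.0830 ± 0.085, Dnajb13 at -0.0478 ± 0.041, Dnaja2 at -0.0431 ± 0.010, Dnaja3 at -0.0321 ± 0.038 and Dnajb5 at -0.0311 ± 0.031. Dnajb1, the J-domain partner most tied to the heat shock response, had a mean of -0.0715 ± 0.050, but its 2 probes lay on either side of 0, at -0.189 ± 0.059 and 0.0456 ± 0.040. The splicing-associated Dnajc8 (0.0194 ± 0.039) and Dnajc27, a small GTPase with a J domain (0.214 and -0.318), had opposite signs on the arrays.

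Hsp90aa1, Fkbp5 and Fkbp4 were above 0 on both arrays, while Fkbpl, a related Hsp90 partner, was below 0 on both (-0.0254 and -0.111). Hsp90aa1, the inducible cytosolic Hsp90, was at 0.167 and 0.114 (mean 0.140 ± 0.037, 1.38-fold). Fkbp5, an Hsp90 partner induced by glucocorticoids, was at 0.168 and 0.139 (mean 0.153 ± 0.020, 1.42-fold), and Fkbp4, its relative at steroid receptors, was at 0.0972 and 0.0947 (mean 0.0959 ± 0.0018). Of all named genes, 30.2% were above 0 on both arrays and 8.75% were called. Of 5 measured cochaperone and prefoldin genes from a list of 20, all had a mean above 0 and none was called. Of these, 4 were above 0 on both arrays, and the median was 0.0671. They ran from Cdc37, the kinase-specific Hsp90 partner, at 0.0221 ± 0.032 to the prefoldin subunit Pfdn6 at 0.113 ± 0.061, and Stip1, which links Hsp70 to Hsp90, was at 0.0906 ± 0.0097. The measured heat shock factor genes were Hsf2 at -0.0232 ± 0.020 and Hsf4 at 0.0726 ± 0.065, with the inhibitor gene Hsbp1 at 0.0174 ± 0.042.

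The largest chaperone-gene ratio was that of Fkbp1b. It encodes a small FK506-binding protein known for binding the ryanodine receptor, a calcium release channel. Its ratio was 0.379 (+ polarity) and 0.349 (- polarity), a mean of 0.364 ± 0.021 (2.31-fold), ranking 108 of 4331 genes. Were the deposited values log2, this would be 1.29-fold. Fkbp1a, the closely related target through which FK506 inhibits calcineurin in T cells, was at 0.222 and 0.180 (mean 0.201 ± 0.029, 1.59-fold). Of the other cytosolic and nuclear relatives, Fkbp3 was at 0.0234 ± 0.012 and Fkbpl at -0.0682 ± 0.061, and the membrane-anchored Fkbp8 was at 0.0770 ± 0.055. The 10 Fkbp genes thus spanned the whole range of the chaperone genes, from Fkbp7 at the bottom to Fkbp1b at the top, and all 10 had the same sign on both arrays. Among the cyclophilins, Ppia, the abundant target of ciclosporin, was at 0.0625 and 0.130 (mean 0.0962 ± 0.048). The spliceosomal Ppil3 (-0.0456 ± 0.070) and Ppih (0.163 and -0.370) had opposite signs on the arrays.

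**Figure D2:**
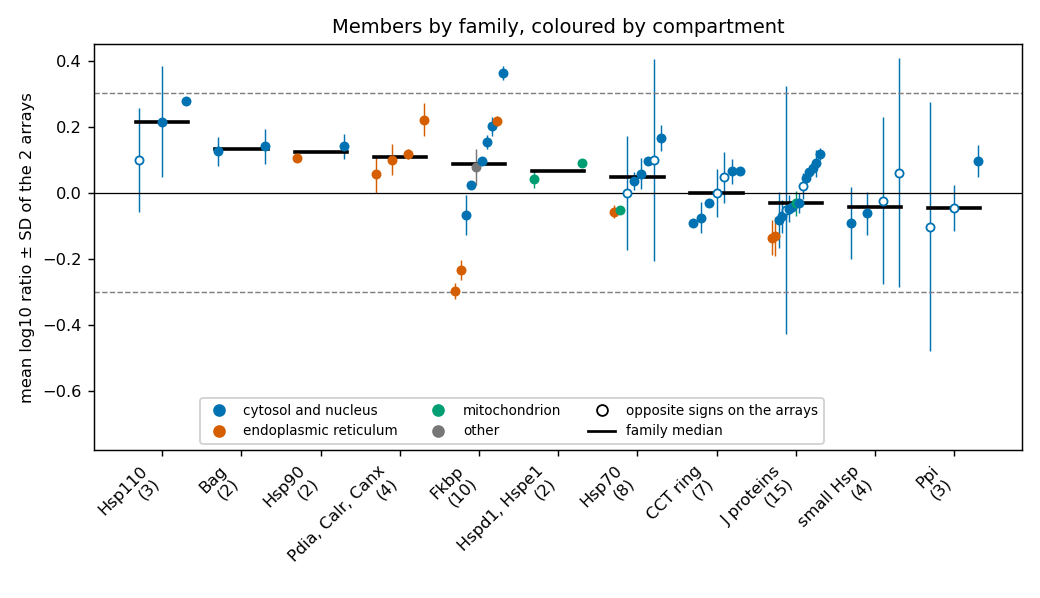
Mean log10 ratio of each chaperone gene with the SD of the 2 arrays as error bar, by family, with the number of genes in brackets and the family median as a black line. Colours give the compartment, open symbols are genes with opposite signs on the arrays, and dashed lines mark 2-fold. The 3 Hsp110 and 2 Bag genes have means above 0, the Fkbp genes spread from -0.298 to 0.364, and the ER genes of the Hsp70, J-protein and Fkbp families, except Fkbp2, lie below 0.

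Subunits of the CCT ring did not differ in a shared direction. This cytosolic chamber folds actin and tubulin and is assembled from different subunits in fixed number. The 7 measured subunits ran from Cct4 at -0.0930 ± 0.0100 to Cct3 at 0.0665 ± 0.0077. Tcp1 (0.0655 ± 0.038) lay with Cct3, while Cct2 (-0.0751 ± 0.046) and Cct5 (-0.0325 ± 0.0056) lay with Cct4. Cct6a (0.0466 ± 0.077) and Cct7 (-0.000385 ± 0.073) changed sign between arrays. The median was -0.000385, and it became 0.00154 when each array was centred on its median.

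The small heat shock genes differed widely between the arrays, with a median SD of 0.181, against 0.0390 over the 61 genes. These proteins hold unfolded clients without using ATP and are most abundant in muscle. Hspb1 ran from -0.203 (+ polarity) to 0.156 (- polarity) and Hspb8 from -0.184 to 0.305. Hspb3 (-0.0923 ± 0.11) and Hspb7 (-0.0623 ± 0.065) were below 0 on both arrays, with means smaller than their SD. The family's median was -0.177 (+ polarity) and 0.0699 (- polarity). Hspbap1, which binds a small heat shock protein, was at -0.000125 ± 0.027. None of these 5 genes had a mean larger than its SD.

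**Figure D3:**
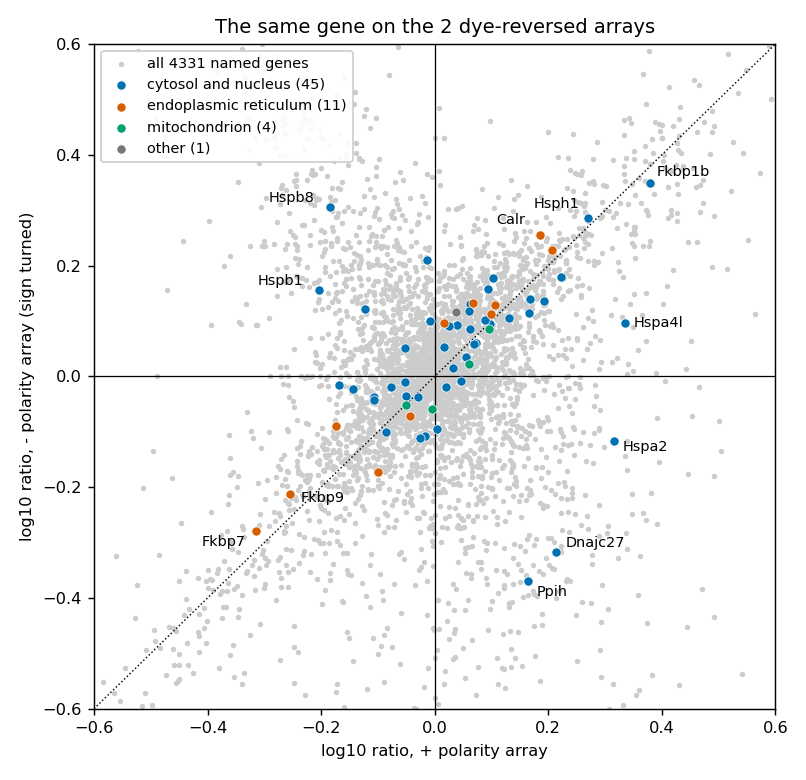
Log10 ratio of each gene on the + polarity array (horizontal axis) and on the - polarity array after its sign was turned (vertical axis), with all named genes in grey, chaperone genes coloured by compartment, and the dotted line marking equal values; axes end at 0.6, which leaves 194 genes outside. The ER and mitochondrial genes lie in the quadrants of agreeing sign, while Hspb1, Hspb8, Hspa2, Dnajc27 and Ppih lie in those of opposite sign.

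The 4 mitochondrial genes had small ratios, 2 above and 2 below 0. Hspd1 and Hspe1, the chamber and lid of the mitochondrial chaperonin, were above 0 on both arrays. Hspd1 was at 0.0961 and 0.0853 (mean 0.0907 ± 0.0076, 1.23-fold) and Hspe1 at 0.0597 and 0.0231 (mean 0.0414 ± 0.026, 1.10-fold). Hspa9, the mitochondrial Hsp70, was at -0.0507 and -0.0521 (mean -0.0514 ± 0.00093, 1.13-fold), and its J-domain partner Dnaja3 was at -0.00494 and -0.0592, with a mean smaller than its SD (-0.0321 ± 0.038). The 4 genes kept their signs on both arrays, and none reached 1.5-fold. Of 4 other measured genes of mitochondrial folding and proteolysis from a list of 14, 1 was above and 1 below 0 on both arrays, from Clpb at -0.0114 ± 0.013 to the protease subunit Clpp at 0.0461 ± 0.038.

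Hspd1 and Hspe1 are divergent neighbours, and the letters of the heat shock element between them fall in both windows. The element, bound by heat shock factors, was searched as GAANNTTCNNGAA on either strand. It was present in 4 of the 57 genes with a window (7.02%), against 179 of 27025 (0.662%) and 15 of 3427 measured genes (0.438%). The element is one known from heat shock gene promoters, so these shares are no independent result. The stretch is shown because the windows of both chaperonin genes hold it, and whether a factor binds it was not tested. It is written 5′ to 3′ on the Hspe1 strand, with 2 overlapping matches in capitals.
Hspe1 and Hspd1: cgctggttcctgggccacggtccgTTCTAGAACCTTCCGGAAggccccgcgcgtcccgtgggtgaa

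It lies at chr1:55088035-55088100 (GRCm38.p6, plus strand), between annotated starts that are 216 bases apart. The other genes with a match were Dnajb6 and Hsph1, the latter within the transcribed part of its window. All 4 genes had positive ratios on both arrays, as had 50.8% of the 61 chaperone genes and 30.2% of all named genes. Their means ran from 0.0414 for Hspe1 to 0.278 for Hsph1, and Hspd1 and Hspe1 share the same stretch. The 11 other measured genes with the element were counted by the sign of the mean alone, 4 above 0 and 7 below. Hspa1a, whose window did not hold these letters, was also positive. Dnajb1, likewise without a match, had a negative mean, but its 2 probes lay on either side of 0 (-0.189 and 0.0456). No test was made over these genes, and 3 of the 4 ratios were below 1.5-fold.

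Markers of cell types and of cell division also lay on either side. Among all named genes, 30.2% were above 0 on both arrays and 29.3% below 0 on both. Of 18 measured cell division genes, 17 were above 0 on both arrays, with a median of 0.277. All 5 listed type 2 genes were above 0 on both, with a median of 0.443. The lowest of the 5 was Il4, at 0.39 (+ polarity) and only 0.00553 (- polarity). All 10 measured macrophage genes were below 0 on both arrays, from -1.05 for Adgre1 to -0.0221 for Itgam, with a median of -0.905. Of 8 B cell genes, 6 were below 0 on both (median -0.349), while Cd22 was above 0 on both (0.193 ± 0.024). Of 5 erythroid and platelet genes, 3 were below 0 on both (median -0.153). Of 5 measured genes on the gamma delta T cell list, 3 were above and 2 below 0 on both (median 0.0954). All but Sox13 encode CD3 chains (Cd3d, Cd3e, Cd3g and Cd247), which are not particular to gamma delta T cells. The 5 genes ran from Cd247 at -0.185 ± 0.13 to Sox13 at 0.465 ± 0.034. The 4 plasma cell genes, of a cell type rich in ER chaperones, had a median of 0.0122, with Prdm1 at 0.404 ± 0.088, Jchain at -0.0423 ± 0.021, Tnfrsf17 at -0.113 ± 0.16 and Xbp1 as above. Of 4 alpha beta T cell genes, Cd8a (-1.20 ± 0.77) and Cd8b1 (-1.18 ± 0.082) were negative, Zbtb7b was positive (0.311 ± 0.075) and Cd4 had opposite signs on the arrays (0.0177 ± 0.047). The part of these cell types and of cell division in the chaperone ratios was not tested.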

How the data were processed

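The deposited values are 1 log ratio per probe and array, for 8014 probes on 2 arrays. It was read as log10 values made by the authors, an assumption, since the base, the numerator, the scanner, the background correction and the normalization are not stated in the labels or the table. The deposited medians were -0.00284 (+ polarity) and 0.00101 (- polarity), and the columns correlated with r = -0.301 over all probes. The - polarity array was multiplied by -1, probes of a gene were averaged, and then the arrays were averaged. Probes with 1 gene in the platform annotation numbered 4654, those with several 73 and those with none listed 3287. All 61 chaperone genes matched RefSeq (GRCm38.p6) by gene identifier. No depth exists for arrays, and their number limits the precision.

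Every gene taken by the name rule could be named. Outside it, genes came from fixed lists, mainly from the highest and lowest measured, those past 2-fold and landmark genes. Some list genes between these (Ero1a, Herpud1, P4hb, Atf4, Xbp1, Stip1) and the motif genes were picked after their values were seen. Not every extreme or gene past 2-fold is given. The macrophage, B cell, erythroid and platelet, cell division and type 2 lists hold further genes past 2-fold. The name rule, the compartments and the lists were chosen with earlier results of these data known. The averaging of probes and the rule of size were tested on simulated ratios. Recovery was required only for effects larger than any chaperone ratio here, and the turning of the sign was not simulated. Python 3.11.15, pandas 2.3.3, numpy 2.4.6 and matplotlib 3.10.9 were used.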

Additional observations from a re-analysis of the deposited data

How the results depend on the processing

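With 1 dye-reversed pair, the limits are the missing replicate, the unknown log base and numerator, and the absence of probe brightness. The number of chaperone genes called was 1 when arrays were centred, where 8.77% of all named genes were called. It was also 1 when the probe farthest from 0 stood for a gene (9.1%). It was 2 with arrays scaled to the same SD (Fkbp7 joined Fkbp1b at -0.305), where 8.82% of all named genes were called, and 8 at 1.5-fold (17.9%). It was 0 at 3-fold (3.32%) and with the values read as log2 (0.393%) or as natural logs (1.43%). Each array alone gave 4 genes, Fkbp1b in both, while 10.4% (+ polarity) and 17.1% (- polarity) of all named genes were called. The mitochondrial median was -0.0145 with the - polarity array alone and 0.0274 with the + polarity array alone. The medians of all 61 genes (0.0380 to 0.0611), of the cytosolic and nuclear genes (0.0388 to 0.0611) and of the ER genes (0.0156 to 0.0956) stayed above 0 under each alternative. Centring turned the sign of Cct7, Hspa1l and Hspbap1, and scaling that of Hspbap1. No gene taken by the name rule had been classed as outside folding, so the setting that leaves such genes out could not change any value. No paired analysis was possible because both arrays belong to 1 group.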

Other observations

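Few measured genes outside the chaperone family held the promoter letters searched above. The ER stress response element was present for 7 of 3427 measured genes with a window, 5 of them ER chaperone genes. The other two were Xlr3c, at 0.205 ± 0.018 (1.60-fold), and Ptgdr2, the prostaglandin D2 receptor of type 2 cells, at -0.0322 ± 0.024. The heat shock element was present for 15 measured genes, 4 of them chaperone genes. Of the 11 others, 4 had a mean above 0 and 7 below, with a median of -0.0278, from Bst2, an interferon-induced antiviral gene, at -0.274 ± 0.10 to Phrf1 at 0.119 ± 0.077. Chordc1, an Hsp90 partner among them, was at 0.0427 ± 0.017. These genes were named after their values were seen.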
